A study of Rattus norvegicus with 28 samples.

Results

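The features described here are the 7 spots of a custom oligonucleotide array that its annotation assigns to 4 genes of noradrenaline signalling, out of 228 features in all. Features 27, 32 and 33 were annotated to Adra2a, the alpha-2A adrenergic receptor, feature 31 to Adra2c, the alpha-2C receptor, feature 42 to Adrb3, the beta-3 receptor, and features 203 and 204 to Slc6a2, the noradrenaline transporter. Every feature annotated to these 4 genes was taken, whatever its values; the 4 genes themselves are some of the adrenergic genes on the array, picked with earlier results of these data known. Features 27 and 32 cite the same sequence record for Adra2a, feature 33 cites another, and the pair for Slc6a2 cites a single record.

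Noradrenaline is released in the brain stem and spinal cord by neurons whose cell bodies lie in a few brain stem nuclei, the locus coeruleus among them. Alpha-2 receptors couple to inhibitory G proteins: they act as autoreceptors on noradrenergic terminals and, in the dorsal horn, dampen transmission from pain fibres, which is the basis of pain relief by clonidine. Beta-3 receptors raise cyclic AMP and are best known from adipose tissue. The transporter takes noradrenaline back up into the terminal, and its messenger RNA is made mainly in the noradrenergic cell bodies.

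RNA of male rats was hybridised to 28 arrays with 2 channels each. Channel 1, in Alexa 647, held RNA of an animal injected as a pup on postnatal day 3 into the sole of the left hindpaw. Channel 2, in Alexa 546, held RNA of the same region from an animal that received no injection. The dyes were never swapped. In every mean ratio against uninjected controls below, injection and dye therefore cannot be told apart. Pups received 0.25% carrageenan, a seaweed polysaccharide that inflames tissue, in 0.9% saline at 1 µl/g, or saline alone, and after weaning on day 21 they were raised to day 59. The regions were PAG (commonly the periaqueductal grey of the midbrain), RVM (commonly the rostral ventromedial medulla), and the left and right lumbar dorsal horn of the spinal cord (LDH), the left being the side of the injected paw. In PAG 5 arrays followed carrageenan and 5 saline, in RVM 5 and 4, and LDH had 5 arrays of the left side and 4 of the right, both from carrageenan-injected rats. Whether each array had an animal and a control of its own is not stated, so the p-values below cover array to array spread only, part of which may be technical.

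Each value is the deposited log2 ratio of both channels, taken as injected over uninjected, the likely direction. It is not a level: a ratio of 1 means 2 times as much signal from the injected animal, whatever the abundance. An exact 0 was taken as not measured, which applied to 55.9% of the table. Arrays measured between 7 and 195 features each, and 4 of the arrays measured under 40. In bulk tissue, fewer cells of a type and less RNA per cell cannot be told apart. The tissue labels could not be checked against markers, since each ratio compares samples of the same region. Few markers were on the array in any case. Of 5 genes marking noradrenergic neurons it held only Slc6a2, and of 4 marking serotonergic neurons only Slc6a4. Of those fixed for astrocytes, microglia and oligodendrocytes it held 0.

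Adra2c and Adrb3 were measured on most arrays, and the transporter features on fewer. Adra2c feature 31 was measured on 26 of 28 arrays and Adrb3 feature 42 on 24. Adra2a feature 33 was measured on 21, feature 32 on 18 and feature 27 on 5, while Slc6a2 features 203 and 204 were measured on 9 and 12. A feature of the array was measured on 10.5 arrays at the median. Both transporter features followed one pattern in PAG: feature 203 was measured on 5 of 5 carrageenan arrays against 1 of 5 saline arrays, and feature 204 on 4 of 5 against 0 of 5. A gain of 4 or more arrays was seen for 22 of the 228 features (9.65%). PAG carrageenan arrays also measured more of the whole array, with a mean of 149 features (SD 36.9, n = 5) where PAG saline arrays had 80.8 (SD 26.8, n = 5), and the part of this in the transporter's pattern was not tested. In RVM the transporter gave no such pattern. Feature 203 was measured on 0 of 5 carrageenan and 2 of 4 saline arrays, and feature 204 on 3 of 5 and 2 of 4.

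**Figure D1:**
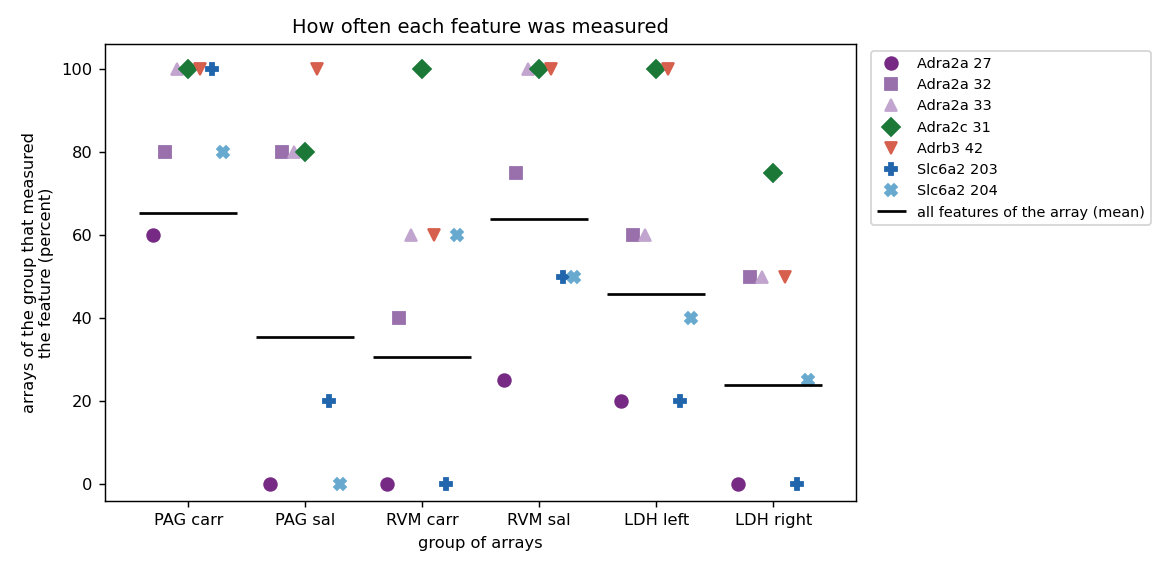
Percent of the arrays of each group (x axis) that measured each of the 7 features (coloured marks), with the mean over all features of the array as a black line. In PAG, Slc6a2 features 203 and 204 went from 5 and 4 of 5 carrageenan arrays to 1 and 0 of 5 saline arrays, while the line fell too. Adra2c, Adrb3 and Adra2a features 32 and 33 lay above the line in all 6 groups.

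Of the receptor features, Adra2a feature 32 carried the highest ratios in PAG. On PAG carrageenan arrays 1 to 4 it read 2.65, 1.26, 5.35 and 0.67, and array 5 did not measure it. On PAG saline arrays 1 to 4 it read 1.57, 1.14, -0.081 and -0.04, and array 5 did not measure it either. All 4 carrageenan values lay above 0 and the saline values lay on both sides of it, but the groups overlapped, since 2 of the carrageenan values were below the highest saline value. On PAG carrageenan array 3, feature 32 was the third largest of 151 measured ratios in size.

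Its mean in PAG was 2.48 ± 2.08 after carrageenan (SD, n = 4) against 0.65 ± 0.84 in saline arrays (n = 4), which differed by 1.83 (95% interval -0.56 to 4.22; adjusted p = 0.432 by limma, Benjamini-Hochberg over 78 features). Against uninjected controls the carrageenan mean of 2.48 had an interval of 0.79 to 4.17 and an adjusted p of 0.0605. The feature ranked 13 by p among the 78 tested, of which 11 passed. Fitting all 6 groups together brought it past the threshold (adjusted p = 0.00926 by limma), with 7 of 78 features passing. That fit pools the spread of all groups, and the SD of feature 32 ran from 0.14 in left LDH to 2.08 in PAG carrageenan. Without carrageenan array 3, the highest value of the feature, the carrageenan mean was 1.53 (adjusted p = 0.0957). The saline mean had an interval of -1.04 to 2.34 (adjusted p = 0.778). Elsewhere its group means were lower, at most 0.45, and each range overlapped that of PAG saline. Of these groups, RVM carrageenan also overlapped PAG carrageenan. It read from -0.25 to 1.15 over 2 RVM carrageenan arrays, 0.012 to 0.64 over 3 RVM saline arrays, -0.099 to 0.16 over 3 left LDH arrays, and 0.11 to 0.65 over 2 right LDH arrays.

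Adra2a feature 33 did not follow feature 32. It read 0.41, 0.22, 0.20, -0.36 and -0.026 on PAG carrageenan arrays 1 to 5, and 0.14, 0.41, 0.23 and 0.34 on PAG saline arrays 1 to 4. The means were 0.087 ± 0.29 (SD, n = 5) and 0.28 ± 0.12 (n = 4), a difference of -0.19 (95% interval -0.58 to 0.20; adjusted p = 0.552 by limma). Here the carrageenan values spanned 0 and the saline values were all above it, and the saline range lay within the carrageenan range.

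In RVM the same feature separated 3 of the saline arrays from the rest. It read 0.74, 0.84, 0.80 and -0.042 on RVM saline arrays 1 to 4, and 0.015, 0.086 and 0.004 on RVM carrageenan arrays 1, 3 and 5, while carrageenan arrays 2 and 4 did not measure it. The saline values fell into 3 close together and 1 below all carrageenan values, so the groups overlapped. The means were 0.035 ± 0.045 after carrageenan (SD, n = 3) against 0.58 ± 0.42 in saline arrays (n = 4), and carrageenan minus saline was -0.55 (95% interval -1.15 to 0.053; adjusted p = 0.465 by limma over 56 features). Without RVM saline array 4 the difference was -0.76 and passed (adjusted p = 0.0266 by limma), the single feature of 43 to do so. That array had measured the most features of all 28, 195.

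Against uninjected controls, the RVM saline mean of 0.58 had an interval of 0.19 to 0.98 and did not pass (adjusted p = 0.0865). Without array 4 it was 0.79 and passed (adjusted p = 0.00412 by limma), in a fit where 9 of 43 features passed, against 3 of 56 with all arrays. Leaving out array 1, 2 or 3 in its place gave adjusted p-values from 0.155 to 0.234. After carrageenan the RVM interval was -0.42 to 0.49. In left LDH feature 33 read 2.06, 0.53 and 0.21 on arrays 2, 3 and 4, and in right LDH -0.30 and -0.18 on arrays 3 and 4. The left values all lay above the right ones, as they also did for Adrb3, each with 2 measured arrays on the right. How many features of the array did so with 2 measured arrays per group was not counted, so nothing is read from this order. With 2 measured arrays on the right, feature 33 did not enter the main test. When 2 measured arrays per group were enough, the difference was 1.17 (95% interval -0.65 to 3.00, adjusted p = 0.782 by limma), with 0 of 61 features passing. Adra2a feature 32 went the other way there, at -0.32 (95% interval -0.97 to 0.33, adjusted p = 0.782 by limma).

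Adra2a feature 27 was below 0 wherever it was measured. It read -1.06, -2.63 and -1.93 on PAG carrageenan arrays 1, 3 and 4, -0.77 on RVM saline array 4 and -0.26 on left LDH array 2. Its PAG carrageenan mean was -1.87 ± 0.79 (SD, n = 3), and no PAG saline array measured it. Over measured values it therefore entered a test only where the group tested alone had to reach 3 measured arrays. There it did not pass (95% interval -3.05 to -0.69, adjusted p = 0.0968 by limma), with 2 of 155 features passing.

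The Adra2a features thus gave differing readings of the same gene on the same arrays. Features 27 and 32, which cite one record, differed in sign on 4 of 5 arrays that measured both, and lay 7.98 apart on PAG carrageenan array 3. Features 32 and 33 had the same sign on 9 of 16 arrays, with a median distance of 0.73. Features 27 and 33 shared a sign on 2 of 5 arrays. This was not particular to Adra2a: over the 72 pairs of features of one gene outside the members, the signs matched in 267 of 526 comparisons (50.8%). No ratio of Adra2a as a gene is given for that reason, and each feature stands for itself.

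**Figure D2:**
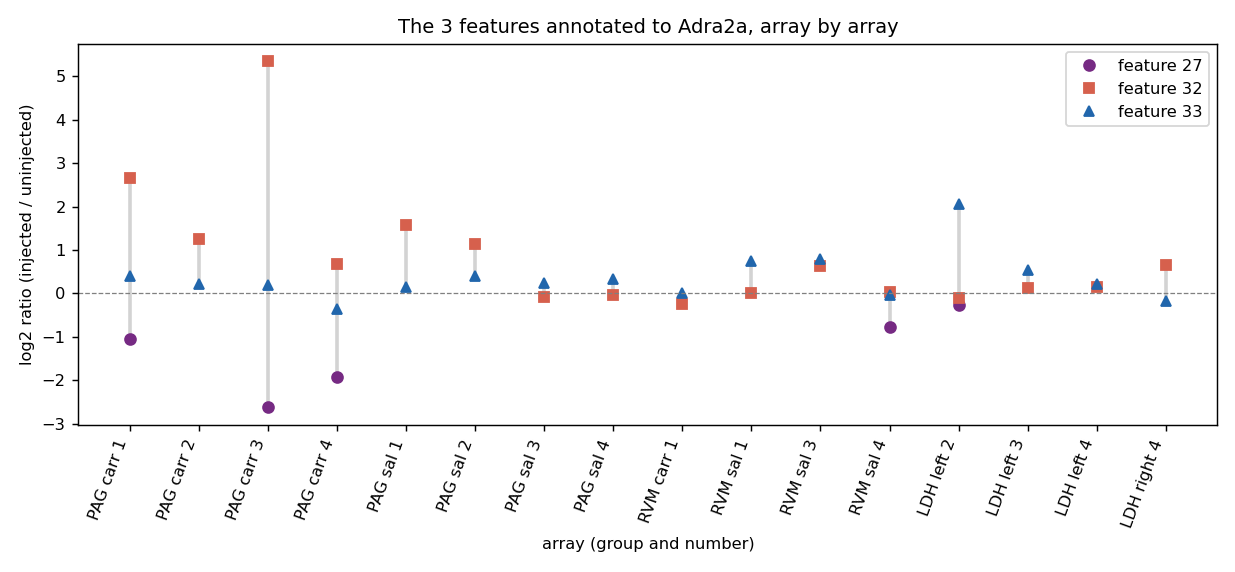
Log2 ratio (injected over uninjected, y axis) of the 3 features annotated to Adra2a on each array (x axis) that measured at least 2 of them, joined by a grey line. On PAG carrageenan array 3, feature 32 read 5.35, feature 33 read 0.20 and feature 27 read -2.63.

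Adra2c feature 31 gave small ratios on most arrays, with 11 of 26 within 0.1 of 0, against 21.3% of all measured values of the table. It read 0.24, 0.001, 0.02, 1.35 and 0.12 on PAG carrageenan arrays 1 to 5, and 0.002, -0.04, -0.001 and -0.29 on PAG saline arrays 1 to 4. All 5 carrageenan values lay above 0, but the lowest, 0.001, was under the highest saline value, so the groups overlapped. The difference was 0.43 (95% interval -0.22 to 1.08; adjusted p = 0.432 by limma), and without carrageenan array 4 it was 0.18.

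In RVM, Adra2c read 0.13, 0.44, -0.065, -0.014 and 0.32 on carrageenan arrays 1 to 5, and -0.002, 0.57, 0.49 and 0.094 on saline arrays 1 to 4. The groups interleaved. The difference was -0.12 (95% interval -0.52 to 0.27; adjusted p = 0.85 by limma), and its sign turned under quantile normalization, to 0.17. Against uninjected controls the saline mean was 0.29 ± 0.28 (SD, n = 4; 95% interval -0.0092 to 0.58; adjusted p = 0.216), and the carrageenan mean 0.16 ± 0.22 (n = 5; 95% interval -0.10 to 0.43; adjusted p = 0.964).

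In the dorsal horn, Adra2c was the single one of the 7 features measured often enough on both sides to be tested. It read 3.20, 0.29, 0.18, -0.081 and 0.16 on left arrays 1 to 5, and 0.06, 1.36 and 0.14 on right arrays 2, 3 and 4. One array on each side stood above the rest, and the other values lay between -0.081 and 0.29. The left mean was 0.75 ± 1.38 (SD, n = 5) and the right mean 0.52 ± 0.73 (n = 3), a difference of 0.23 (95% interval -1.59 to 2.05; adjusted p = 0.856 by limma over 29 features). Without left array 1 the difference turned to -0.38 and the left mean was 0.14.

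Adrb3 feature 42 was also within 0.1 of 0 on 11 of its 24 arrays, and in PAG carrageenan, RVM saline and left LDH 1 array stood far above the others. It read 0.56, 0.53, -0.23, 0.40 and 2.50 on PAG carrageenan arrays 1 to 5, and -0.16, 0.011, 0.036, 0.49 and 0.078 on PAG saline arrays 1 to 5. Of the carrageenan values 3 lay above all saline values and 1 below them. The means were 0.76 ± 1.03 and 0.091 ± 0.24 (SD, n = 5 each), a difference of 0.66 (95% interval -0.34 to 1.67; adjusted p = 0.432 by limma). Without carrageenan array 5 the difference was 0.23.

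Against uninjected controls, the PAG carrageenan mean of Adrb3 had an interval of 0.048 to 1.46 and did not pass after adjustment (adjusted p = 0.121). In RVM, Adrb3 read -0.28, 0.097 and 0.076 on carrageenan arrays 1, 2 and 5, and 0.014, 1.72, -0.049 and 0.20 on saline arrays 1 to 4. The groups overlapped, and the difference was -0.51 (95% interval -1.65 to 0.63; adjusted p = 0.85 by limma). Without saline array 2 it was -0.091. In left LDH, Adrb3 read 5.32, 0.29, 0.003, -0.003 and 0.44 on arrays 1 to 5, and in right LDH -0.067 and -0.035 on arrays 2 and 4. The value of 5.32 was number 4 in size of the 100 measured on that array, the one on which Adra2c also stood highest. The left values of Adrb3 all lay above its right ones, the lowest left value being -0.003 and the highest right value -0.035. How many features of the array had such an order with 2 measured arrays on a side was not counted, so nothing is read from it. With 2 measured arrays per group enough, the left to right difference was 1.26 and did not pass (95% interval -2.62 to 5.15).

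Slc6a2 was read mostly below 0 by one feature and on both sides of 0 by the other. Feature 203 read -1.93, -2.60, -1.05, -1.48 and 0.17 on PAG carrageenan arrays 1 to 5, and -2.60 on PAG saline array 2, the single saline array that measured it. It read -0.83 and -1.50 on RVM saline arrays 2 and 4, and 1.68 on left LDH array 2. In PAG carrageenan 4 of 5 arrays lay at or below -1.05, and the mean was -1.38 ± 1.04 (SD, n = 5). Tested where that group alone had to reach 3 measured arrays, it did not pass (95% interval -2.42 to -0.34; adjusted p = 0.113 by limma).

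Feature 204 of Slc6a2 read -1.03, 0.33, -0.013 and 1.88 on PAG carrageenan arrays 1 to 4, a mean of 0.29 ± 1.2 (SD, n = 4). It read -1.14, 0.65 and 0.45 on RVM carrageenan arrays 1, 3 and 5, and -0.70 and -0.069 on RVM saline arrays 1 and 4. Its values thus lay on both sides of 0 in each of these groups except RVM saline. In LDH it read 1.59 and -0.32 on left arrays 2 and 4, and -0.082 on right array 4. Where both transporter features were measured, they had the same sign on 4 of 6 arrays, with a median distance of 1.23. No comparison between injected groups could be tested for feature 203 over measured values. For feature 204 the RVM difference, with 2 measured arrays enough, was 0.37 (95% interval -1.45 to 2.19; adjusted p = 0.874 by limma).

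**Figure D3:**
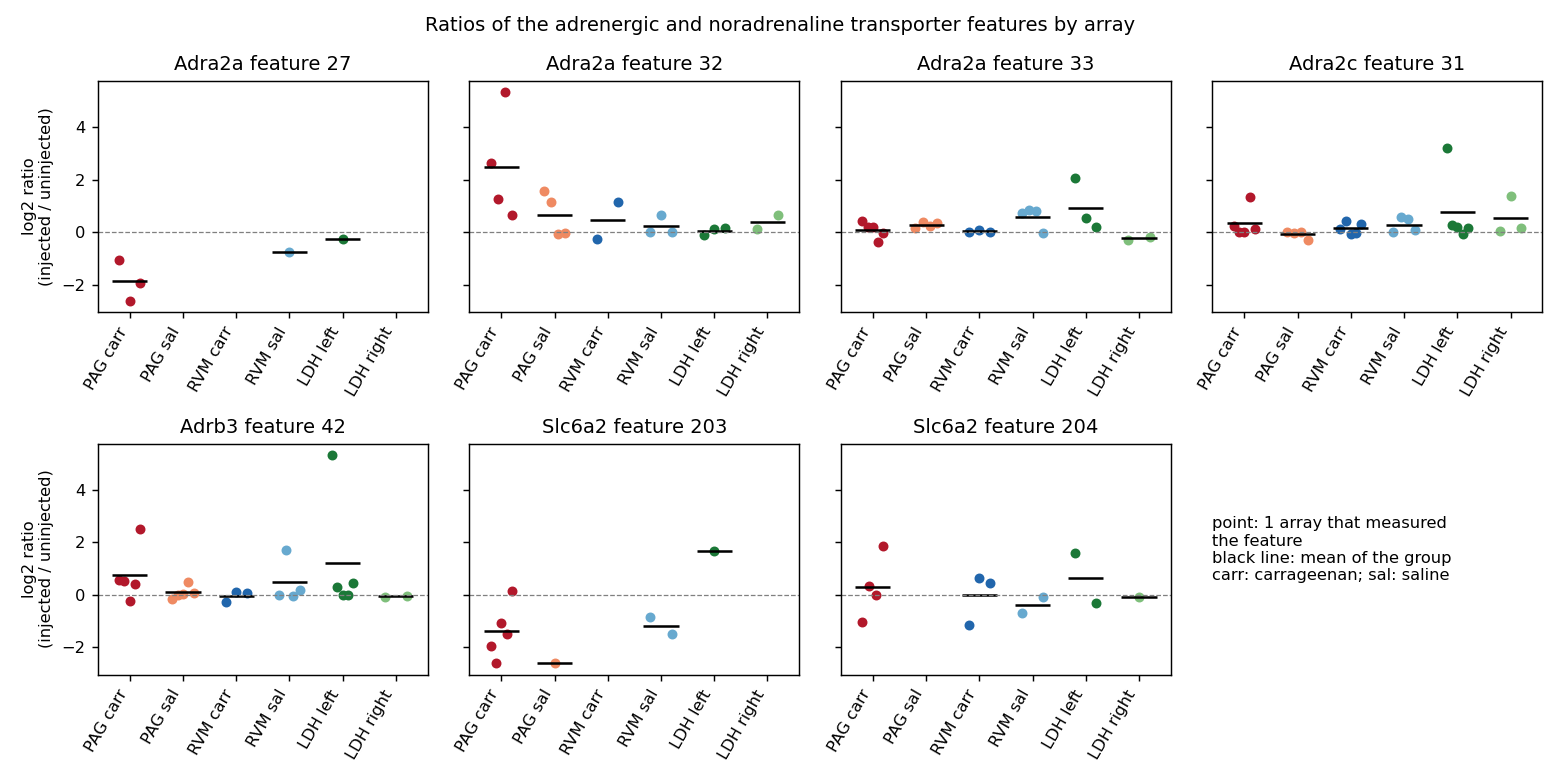
Log2 ratio (injected over uninjected, y axis) of each of the 7 features in 6 groups of arrays (x axis); a point is an array that measured the feature and the black line is the group mean. Feature 32 of Adra2a lay above 0 on 4 of 4 PAG carrageenan arrays, feature 27 below 0 on all 5 arrays that measured it, and single arrays set the high means of Adra2c and Adrb3 in left LDH.

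Across the comparisons, the features that could be tested were 4 of 7 in PAG (31, 32, 33 and 42), 3 of 7 in RVM (31, 33 and 42) and 1 of 7 in LDH. Between carrageenan and saline in PAG, 0 of 4 passed an adjusted p of 0.05 by limma, with 0% of 78 features called and 0 of 4 by the exact permutation test. At an unadjusted p under 0.05 the count was also 0 of 4, with 12.8% of all features under it. In RVM 0 of 3 passed, with 0% of 56 called, and between left and right LDH 0 of 1, with 0% of 29 called. The exact test gave 0 there as well, and so did the unadjusted p, which 7.14% of all features met in RVM and 0% in LDH. For these features the smallest p the exact test allows runs from 0.00794 to 0.0286. A single feature cannot pass after adjustment at such a p, so the 0 counts of the exact test carry little weight. Groups that did not overlap were found for 0 of these features, against 3.85% of all tested in PAG, 3.57% in RVM and 3.45% in LDH. This count leaves out features 33 and 42 in LDH, which had too few measured arrays on the right to be tested. The median difference of the tested members was 0.55 in PAG, where it was 0.14 over all 78 features, and -0.51 in RVM, where it was -0.097 over all 56. These are medians of 4 and 3 features picked with earlier results of these data known, and the gap was not tested.

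Whether carrageenan against saline differed between PAG and RVM was tested as an interaction for Adra2c, Adra2a feature 33 and Adrb3. The differences of differences were 0.55 (95% interval -0.16 to 1.27), 0.36 (-0.27 to 0.98) and 1.17 (-0.29 to 2.63), and 0 of 3 passed (smallest adjusted p = 0.515 by limma), with 0% of 48 features called. At an unadjusted p under 0.05 the count was also 0, with 6.25% of all features under it. For feature 33 the sign turned under quantile normalization, to -0.005. Against uninjected controls, which share their arrays with the comparisons above, 0 of 4 passed in PAG carrageenan (14.1% called of all tested), 0 of 4 in PAG saline (0% called), 0 of 3 in RVM carrageenan (1.79% called) and 0 of 3 in RVM saline (5.36% called). In left and right LDH 0 of 1 passed (0% called in each). An unadjusted p under 0.05 was reached by 2 features in PAG carrageenan (Adra2a 32 and Adrb3 42) and 1 in RVM saline (Adra2a 33), and by 0 in the other groups. Of all features tested, 33.3% met it in PAG carrageenan, 23.2% in RVM saline, 11.5% in PAG saline, 8.93% in RVM carrageenan, 17.2% in left LDH and 3.45% in right LDH. A single sign on every measured array was held by 2 of 4 tested members in PAG carrageenan (37.2% of all tested), 1 of 4 in PAG saline (34.6%) and 1 of 3 in RVM carrageenan (25%). It was held by 0 of 3 in RVM saline (37.5%), 0 of 1 in left LDH (27.6%) and 1 of 1 in right LDH (37.9%). The exact sign-flip test could pass none, since with 3 to 5 arrays the smallest p it allows runs from 0.0625 to 0.25.

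**Figure D4:**
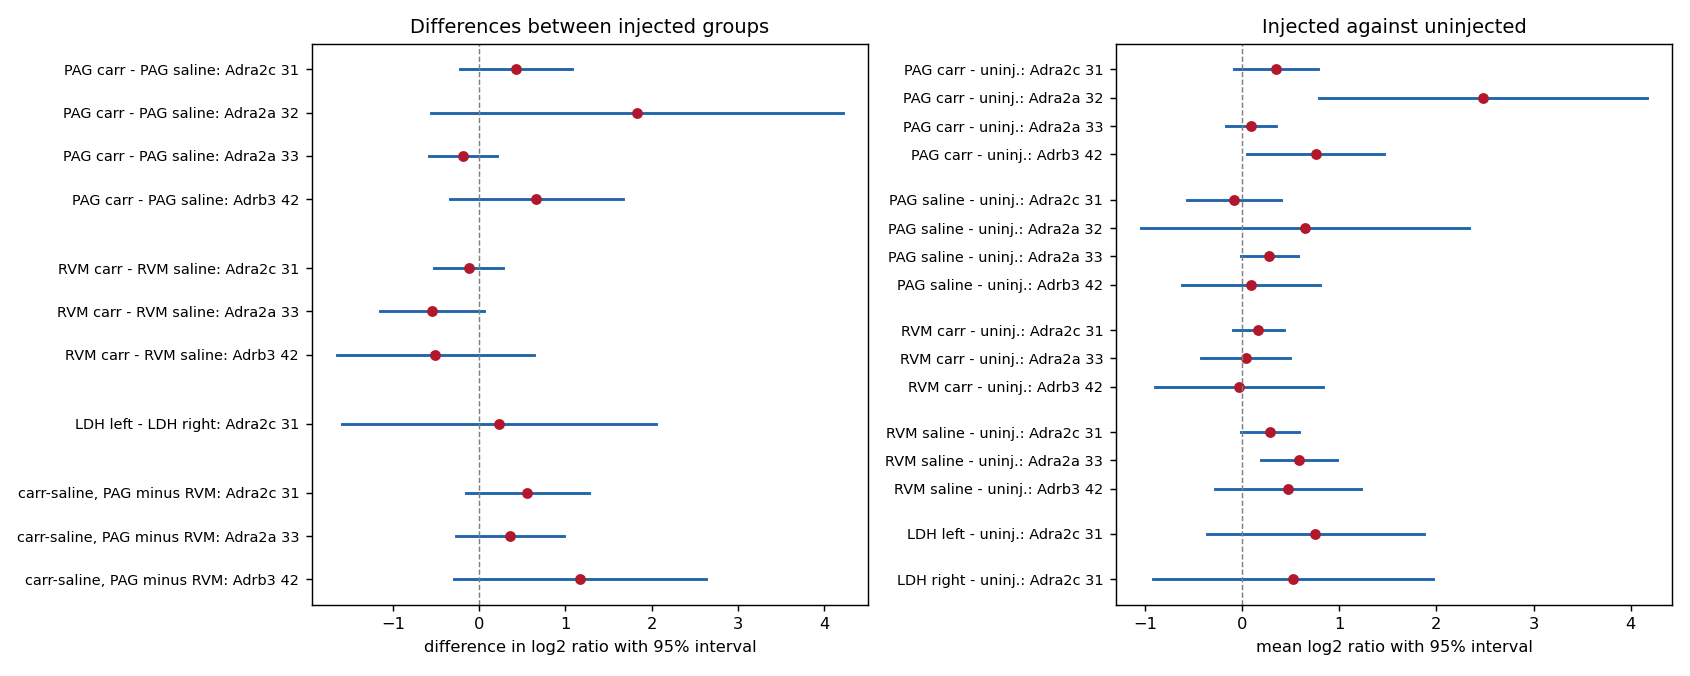
Differences between injected groups (left) and mean ratios against uninjected controls (right), as log2 ratios with 95% intervals from limma, for every member feature that could be tested. On the left every interval includes 0; on the right those of Adra2a 32 and Adrb3 42 in PAG carrageenan and Adra2a 33 in RVM saline lie above 0, and none of these passed after adjustment.

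The order of the group means differed from feature to feature. Over groups with at least 2 measured arrays, PAG carrageenan came first for Adra2a feature 32 and after 3 other groups for feature 33. Left LDH came first for feature 33, Adra2c, Adrb3 and Slc6a2 feature 204. Without left array 1 its means were 0.14 for Adra2c and 0.18 for Adrb3, below those of PAG carrageenan (0.35 and 0.76). Feature 33 was measured on 3 left arrays and feature 204 on 2. PAG saline came last for Adra2c, at -0.083 ± 0.14 (SD, n = 4). Neighbouring groups overlapped in their ranges throughout, except that the 3 RVM carrageenan values of feature 33 all lay above its 2 right LDH values.

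The other genes of noradrenaline signalling were seldom measured. Of 14 listed genes the array held 3, and 0 of them could be tested in any comparison. Adra1d, an alpha-1 receptor, was measured on 4 arrays and lay above 0 on all 4, from 0.12 to 1.53. Adra1a, another alpha-1 receptor, was measured on 4 arrays, from -2.23 to 0.37, and Adrb1, the beta-1 receptor, on 6, from -1.40 to 1.16. The array held 0 of 7 listed dopamine genes.

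Serotonin, the other descending monoamine, was better covered, with 15 of 17 listed genes in 16 features. In PAG carrageenan against uninjected, 1 of 6 tested serotonin features passed and it was higher: the serotonin transporter Slc6a4, at 0.88 (95% interval 0.48 to 1.27; adjusted p = 0.0224 by limma). Of all 78 features 14.1% passed there. Its call was lost under quantile normalization (adjusted p = 0.109), with all 6 groups in 1 fit (0.13), with zeros kept (0.0599), with the filter on that group alone (0.0675) and without carrageenan array 1 (0.0576) or 2 (0.0704). The noradrenaline transporter features gave -1.38 and 0.29 in the same group. In the other 9 comparisons 0 serotonin features passed. The smallest p of the list belonged to Htr4, a receptor for serotonin, in both regions between carrageenan and saline, at 0.85 in PAG (95% interval 0.22 to 1.49; adjusted p = 0.333) and -0.59 in RVM (95% interval -1.29 to 0.10; adjusted p = 0.465). Its interaction was 1.45 (95% interval 0.56 to 2.33; adjusted p = 0.0806). In RVM saline Htr4 averaged 0.65 (adjusted p = 0.094), and in RVM carrageenan Htr2c, another receptor, 0.93 (adjusted p = 0.511). In PAG saline Slc6a4 averaged 0.48 (adjusted p = 0.383). In LDH the single serotonin feature tested was Htr1d, at -0.10 between sides (adjusted p = 0.854), 0.056 in the left against uninjected (adjusted p = 0.718) and 0.16 in the right (adjusted p = 0.728).

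For each member feature, the named features with the most similar ratios were sought over arrays that measured both, at least 10 of them. Adra2c was most like Il10, an anti-inflammatory cytokine (Pearson r = 0.86 over 18 arrays, Spearman rho = 0.45), then Adrb3 (r = 0.80 over 23 arrays, rho = 0.32) and Tacr3, the neurokinin B receptor (r = 0.76 over 19 arrays, rho = 0.61). The 2 arrays farthest from the Adra2c median were then left out. They were picked among the arrays shared with each partner, so they can differ between partners. After that r was 0.82 with Il10 and 0.70 with Tacr3, but 0.22 with Adrb3. The likeness of the receptor pair thus rested on the 2 arrays left out for it.

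Adrb3 was most like Il5ra, an interleukin 5 receptor subunit (r = 0.84 over 19 arrays), Tacr3 (r = 0.84 over 18) and Gabbr1 feature 220, a subunit of the metabotropic GABA receptor (r = 0.82 over 10), and without the 2 farthest arrays these fell to -0.16, 0.09 and 0.15. Adra2a feature 32 was most like Sst, the somatostatin precursor (r = 0.66 over 17 arrays, 0.18 without the 2 farthest), the neurotrophin Ntf4 (0.61 over 17, 0.50 without) and the adenosine receptor Adora2b (0.50 over 10, -0.23 without). Adra2a feature 33 was most like Nts, the neurotensin precursor (0.75 over 20, -0.26 without), the glutamate transporter Slc1a6 (0.62 over 18, 0.40 without) and Pdyn, the dynorphin precursor (0.58 over 15, 0.08 without). Slc6a2 feature 204 was most like the cytokine Il16 (0.86 over 10, 0.80 without), the receptor Vipr2 (0.78 over 11, -0.08 without) and Il10 (0.76 over 10, 0.31 without). These are the highest of 68 to 105 candidates per feature, the points share their arrays and dyes, and they are given as a description. Features 27 and 203 shared 10 arrays with no other named feature.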

How the data were processed

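The values are the log2 ratios the authors deposited, 1 for each feature on each array; scanning, spot filters, background correction and normalization are not given in the sources used here. Base 2 and the direction were inferred: as natural or decimal logs the extremes would exceed a scanner's range, and per the labels channel 1 was the injected animal throughout. Of 348 pairs of arrays sharing at least 15 measured features, 311 correlated above 0 and 7 below -0.3 (lowest -0.51, 1 of them within a group); the direction was kept because the labels state the dyes. Per the labels' protocols, RNA was extracted with TRIzol and 5 µg per sample was labelled with a 3DNA kit.

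Features were named from the platform's annotation and brought up to date with RefSeq (GRCr8), which matched all 4 member genes and 191 of 202 named features. Coordinates are left out because no build is stated. Each of 10 comparisons was fitted with limma 3.58.1 in R 4.3.3 (lmFit, eBayes, two-sided) over all features with at least 3 measured arrays in each group of the fit, without covariates; a group against uninjected is its mean ratio against 0 in the fit of its region, with Benjamini-Hochberg adjustment within each comparison. Intervals are 95% intervals. Alternatives changed the normalization, the minimum of measured arrays, the treatment of zeros, the samples in the fit, the replicate block and the test, and left out each array in turn. The number of arrays limits the precision. The fit was tested on simulated ratios. Named were every member feature, the list feature with the smallest p per comparison and the 3 likest features by Pearson r. Members and lists were chosen with earlier results of these data known.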

Additional observations from a re-analysis of the deposited data

Results flagged for a closer look

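In 7 of the 16 sets of 4 or 5 arrays that measured a member feature, 1 array stood apart from the others by Dixon's criterion, which chance meets in about 1 of 20 sets of normal values. Over the array's other features, 60 of 341 such sets (17.6%) met it; the difference from the members was not tested. In left LDH, array 1 held both Adrb3 at 5.32, where the next value was 0.44, and Adra2c at 3.20, where the next was 0.29. Without it the means fell from 1.21 ± 2.30 to 0.18 ± 0.22 for Adrb3 and from 0.75 ± 1.38 to 0.14 ± 0.16 for Adra2c (SD, n = 5 and n = 4). In PAG carrageenan, array 4 held Adra2c at 1.35, with the others averaging 0.097 ± 0.11, and array 5 held Adrb3 at 2.50, with the others averaging 0.32 ± 0.37. In PAG saline, array 4 held Adra2c at -0.29, with the others averaging -0.013 ± 0.023. In RVM saline, array 2 held Adrb3 at 1.72, with the others averaging 0.055 ± 0.13, and array 4 held Adra2a feature 33 at -0.042, with the others averaging 0.79 ± 0.05.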

How the results depend on the processing

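With the settings used, 0 member features passed in any of the 10 comparisons, and the count stayed 0 under median centring, quantile normalization, at least 2 measured arrays per group, zeros kept as 0, and without the 4 arrays that measured under 40 features (chosen after seeing the data). It was also 0 with the filter on the tested group alone, run for the 6 comparisons against uninjected, and by exact tests of the 3 comparisons between injected groups. In those 3 comparisons a single feature could not pass the exact test after adjustment, as its smallest possible p was 0.00794 or more. Exact tests against uninjected cannot reach the threshold with so few arrays, and none was made of the interaction. With all 6 groups in 1 fit it was 1 in PAG carrageenan against uninjected (Adra2a feature 32, among 7 of 78 features that passed there) and 0 elsewhere. Leaving out each array in turn gave 0 to 1 in RVM carrageenan against saline and in RVM saline against uninjected, both times Adra2a feature 33 without RVM saline array 4, and 0 in the other comparisons. Without that array 1 of 43 features passed in the first of these comparisons and 9 of 43 in the second. In LDH no member could be tested without right array 2, 3 or 4, so those fits say nothing. Signs turned for Adra2c in RVM (0.17 under quantile normalization) and between LDH sides (-0.38 without left array 1, and up to 0.44 without another), for Adra2a feature 33 in the interaction (-0.005 under quantile normalization) and for Adrb3 in PAG saline (-0.0097 without array 4, and up to 0.15 without another); the cause was not tested. With the replicate number as a block, 0 member features passed in each comparison, and Adra2c between LDH sides went to -0.025. The correlation estimated within these blocks was -0.071 in PAG, 0.025 in RVM and 0.409 in LDH. The labels state no pairing, and deviations of same-numbered arrays correlated from -0.78 to 0.37. Arrays correlated best with their own number in 2 of 5 pairs in PAG, 2 of 4 in RVM and 0 of 4 in LDH. Over all features, calls in PAG carrageenan against uninjected ran from 0 to 12 by setting (11 with the settings used), in PAG saline from 0 to 4 (0), in RVM saline from 0 to 9 (3), in RVM carrageenan from 0 to 1 (1), between RVM groups from 0 to 4 (0), between PAG groups from 0 to 1 (0) and in the interaction from 0 to 6 (0). Depth cannot be given for these arrays; most members were limited by how many arrays measured them.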
